A study of Drosophila melanogaster with 32 samples.

Results

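Zhr[1] females were compared directly with PoX2[Df1.688] females, with no wild type in the tests, to ask how loss of a very large heterochromatic satellite array differs from loss of a short euchromatic one. Zhr[1] is an X chromosome that lacks the pericentromeric satellite block, and PoX2[Df1.688] is an X chromosome that lacks a few repeats of the same satellite family next to the gene CG1840. The samples were chosen by labelled genotype and sex, which gave 4 samples of each strain, 8 of the 32 samples in the series. Each sample was RNA depleted of ribosomal RNA from 10 whole virgin flies taken between 6 and 24 h after hatching. The 2 stocks were not brought into one genetic background, so an effect of a deletion and a difference of strain background cannot be told apart in any value given here.

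Gene counts amounted to 13347854–17582428 read pairs in Zhr[1] females, against 13059000–19640742 in PoX2[Df1.688] females, and no 2 samples were alike within sampling noise. Levels are given in CPM, counts per 1000000 gene counts, scaled with TMM factors, and a log2 fold change is Zhr[1] over PoX2[Df1.688] with its standard error (SE). A feature was called upregulated or downregulated in Zhr[1] females when the adjusted p of edgeR's quasi-likelihood test was below 0.05. Accessory gland genes, which mark males, summed to 5.57–7.81 CPM in Zhr[1] and 5.61–8.73 CPM in PoX2[Df1.688] females, while Y-linked and testis genes gave other values that are described with the Y chromosome. Yolk and oocyte transcripts were abundant in both strains.

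The satellite named in the deletion Df1.688, here called the 359-bp family after its unit on the X, consists of tandem repeats that form much of the heterochromatin next to the centromere of the X, and related repeats lie in X euchromatin and beside the centromeres of 2L and 3L. Short arrays in X euchromatin are known as binding sites of POF, a protein that mainly coats chromosome 4, and have been linked with the MSL complex, which raises X transcription in males. Satellite arrays can be transcribed, and repeats of this kind are usually kept silent by heterochromatin proteins and, in the germline, by piRNAs.

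A unit repeat of X heterochromatin is shown as an example of the 9 query sequences of this family behind the blocks. How closely single blocks resemble it was not tested. It is 359 bases long, of which the first 300 are printed. Capitals mark bases 213 to 243, the longest run (31 bases) that the printed part shares with the related unit known from 3L.
Xhet monomer: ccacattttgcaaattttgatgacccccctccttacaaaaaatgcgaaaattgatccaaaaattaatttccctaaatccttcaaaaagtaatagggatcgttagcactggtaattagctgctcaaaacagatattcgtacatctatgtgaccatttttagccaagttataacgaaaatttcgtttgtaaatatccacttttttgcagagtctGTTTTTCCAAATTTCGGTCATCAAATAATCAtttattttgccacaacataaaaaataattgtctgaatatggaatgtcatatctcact
Every place of a multiply mapping read was counted, so a read that aligns to several blocks is counted at each of them. How many reads from the X array align elsewhere was not tested, and a shared run of this length does not show it.

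The labels were checked at the PoX2 block itself (X: 11889258–11891752). It had 0, 24, 14 and 3 reads in Zhr[1] females, 0 reads in each of 4 PoX2[Df1.688] females, and 16, 23, 37 and 14 reads in wild-type females. Reads at this block were thus found in 3 of 4 Zhr[1] female samples and in no PoX2[Df1.688] female sample. The total of 41 against 0 is at least 12-fold higher in Zhr[1] females when a floor of 3 counts over the group is used. Counting error alone is covered by that floor, and the sums of 4 against 4 samples overlapped (exact two-sided permutation p = 0.114). In males the block had 0.483, 0, 0.226 and 0 CPM in Zhr[1] samples, against 0.0869, 0, 0.142 and 0.0812 CPM in PoX2[Df1.688] samples. Reads were thus also assigned to it in flies labelled as lacking it, so this check of the labels is limited.

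Transcripts of satellite blocks were far less abundant in Zhr[1] females. Of 652 annotated blocks 201 were expressed enough to test, and 178 of them (88.6% of all tested) were called, 3 upregulated (1.49%) and 175 downregulated (87.1%). Among the 201, 128 had no Zhr[1] read and passed the filter through PoX2[Df1.688] females alone, so they could only come out lower. Without a filter 429 of 638 blocks were called, 2.56% of them upregulated. Levels did not overlap between strains at 79.6% of tested blocks. All blocks together held 108, 143, 143 and 142 CPM in Zhr[1] females, against 849, 730, 724 and 941 in PoX2[Df1.688] females, a log2 fold change of −2.60 (SE 0.13) or 6.05-fold lower. Groups did not overlap (exact two-sided permutation p = 0.0286, the smallest that 4 against 4 samples can give).

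Most of that difference lay on scaffolds not placed on a chromosome, where large satellite arrays end up in genome assemblies. Summed over 454 unplaced blocks, CPM values were 51.6, 60.4, 67.8 and 63.3 in Zhr[1] females, against 704, 626, 605 and 800 in PoX2[Df1.688] females, 11.2-fold lower in Zhr[1] (log2 fold change −3.49, SE 0.12, exact permutation p = 0.0286, adjusted p = 0.0286 over 4 sums). Blocks on these scaffolds made up 45.5% of all block reads in Zhr[1] females, against 84.3% in PoX2[Df1.688] females. Of 160 tested unplaced blocks 151 were downregulated and none was upregulated, with a median log2 fold change of −7.97, or −5.57 when blocks without any Zhr[1] read are set to their bound. No Zhr[1] read was found at 127 of these 160, which passed the filter through PoX2[Df1.688] females alone and could only come out lower. Single blocks went further still. At 349 unplaced blocks no read was found in any Zhr[1] female, compared with 13 in the PoX2[Df1.688] females, and 340 were empty only in Zhr[1].

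The 6 called blocks with the largest loss were all of this kind. Block 211000022278620_1_1637 had 0 CPM in every Zhr[1] sample and 13.3, 12.8, 9.42 and 12.9 CPM in PoX2[Df1.688] females, at least 269.4-fold lower. The other 5, 211000022278342_55_1412, 211000022278845_68_2079, 211000022280330_1_2247, 211000022278343_1_2113 and 211000022278670_1_1622, were at least 257-, 239-, 234-, 228- and 210-fold lower. Not every scaffold followed them. The strongest block left in Zhr[1] females, 211000022278421_5_2697, had 9.48, 10.2, 11.8 and 11.996 CPM, against 24.9, 22.4, 20.6 and 29.8 CPM in PoX2[Df1.688] females, a log2 fold change of −1.17 (SE 0.19, edgeR adjusted p = 3.69e-07). Reads were thus still assigned to this scaffold in Zhr[1] females, and their origin was not tested.

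**Figure D1:**
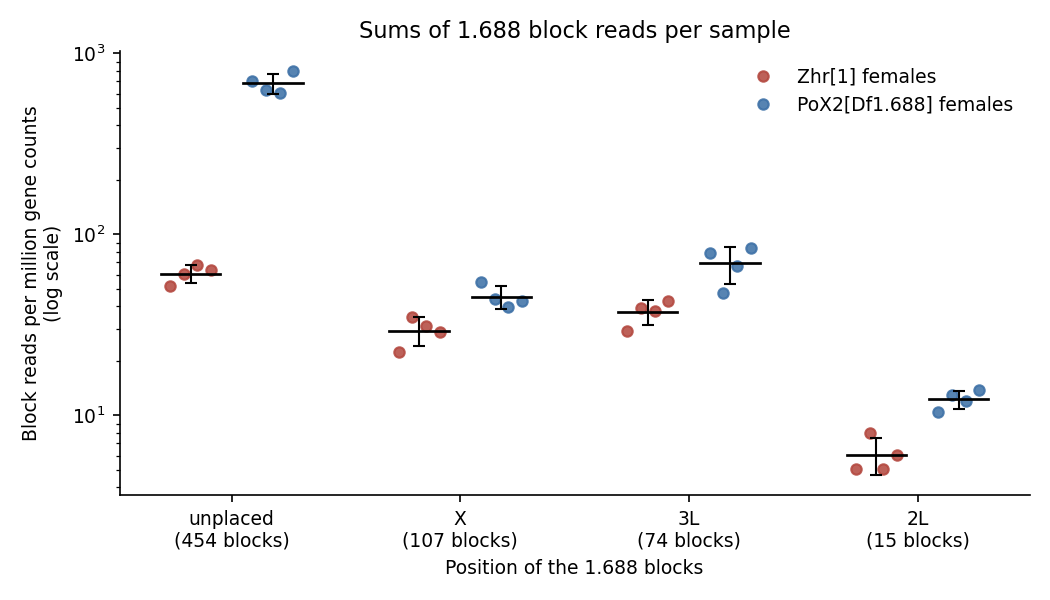
Summed CPM of satellite block reads (log scale) by position of the blocks, with Zhr[1] females (red) left of PoX2[Df1.688] females (blue). Points are samples, lines and bars are mean and SD of 4 samples. Unplaced blocks lie at 51.6–67.8 in Zhr[1] and 605–800 in PoX2[Df1.688] females, while the other classes differ by 1.55- to 2.05-fold.

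Blocks assigned to chromosome arms were lower too, but by much less. X blocks summed to 22.4, 35.1, 31.3 and 29.002 CPM in Zhr[1] females, against 54.8, 43.8, 39.6 and 43.0 in PoX2[Df1.688] females (log2 fold change −0.63, SE 0.17, adjusted exact permutation p = 0.0286), although PoX2[Df1.688] females lack an X block. Leaving that block out gave −0.65. Without PoX2[Df1.688] replicate 1 the X difference was −0.53 (adjusted exact permutation p = 0.0571). Of 14 tested X blocks 2 were upregulated and 8 downregulated. Blocks of 3L summed to 29.3, 39.5, 37.9 and 43.1 in Zhr[1] females, against 79.0, 47.3, 66.7 and 84.1 in PoX2[Df1.688] females (−0.87, SE 0.22, same p), and 13 of 22 tested were downregulated and 1 upregulated. Without TMM factors the 3L sum gave −0.73 (adjusted exact permutation p = 0.0571). On 2L the sums were 5.09, 8.04, 5.08 and 6.07 in Zhr[1] females, against 10.4, 12.9, 12.01 and 13.8 in PoX2[Df1.688] females (−1.03, SE 0.18). Sums of blocks on assembled arms were thus 1.55- to 2.05-fold lower, and the part of reads shared between blocks in this was not tested. Leaving out any Zhr[1] sample (3L) or PoX2[Df1.688] replicate 4 (2L) brought the adjusted exact permutation p to 0.0571 with the direction kept, the sum staying between −1.04 and −0.75 on 3L and between −1.18 and −0.96 on 2L.

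Within 3 chosen X genes, intronic satellite blocks were lower in Zhr[1] than in PoX2[Df1.688] females too. Those in introns of flw, which encodes a protein phosphatase 1 catalytic subunit, summed to 0.191, 0.167, 0 and 0 CPM in Zhr[1] females, against 4.93, 3.53, 3.81 and 2.75 in PoX2[Df1.688] females. That is 6 counted places of reads in all against 217. The 3 single flw blocks had log2 fold changes of −4.82, −5.02 and −5.26, all with edgeR adjusted p of 8.15e-11 or less. Their Zhr[1] values were the same in each sample (2 counts per block), so they may share reads and are not separate tests. In introns of Pde9, a phosphodiesterase gene, 10 blocks summed to 1.08, 1.51, 1.16 and 0.0706 in Zhr[1] females, against 5.74, 6.41, 4.46 and 4.24 in PoX2[Df1.688] females. Those in CG12065 had 0.191, 0.112, 0 and 0, against 0.890, 0.694, 0.432 and 0.298. The Pde9 and CG12065 blocks had too few counts to be tested singly. Against wild type, the paper reports a set of Pde9 blocks as upregulated in PoX2[Df1.688] flies of both sexes. It reports blocks in flw and CG12065 as downregulated in Zhr[1]. What each strain adds to these differences was not tested. None of these 3 sums overlapped between strains (exact permutation p = 0.0286 each), which is no independent test, as the genes were picked from these data. The host mRNAs did not share the difference, as log2 fold changes were −0.16 (SE 0.08, edgeR adjusted p = 0.144) for flw, −0.13 (SE 0.12, adjusted p = 0.45) for Pde9 and 0.08 (SE 0.10, adjusted p = 0.567) for CG12065.

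Upregulated blocks were 3. Block 3L_26881547_26881900 had 1.40, 1.06, 1.54 and 0.776 CPM in Zhr[1] females, against 0.323, 0.214, 0.935 and 0.595 in PoX2[Df1.688] females (log2 fold change 1.24, SE 0.41, edgeR adjusted p = 0.00529), with overlap between the groups. X_10302399_10302945 had 0.91 (SE 0.38, edgeR adjusted p = 0.0236) without overlap and X_201288_243245 0.53 (SE 0.23, adjusted p = 0.0254) with overlap. The first of these 2 calls was lost in 5 of 15 alternatives and the second in 7 of 16. Both were lost with DESeq2, with the sample number as a block and without Zhr[1] replicate 3 or PoX2[Df1.688] replicate 2. The 3L block lost its call without PoX2[Df1.688] replicate 2. Counts at these blocks are low, and the number of upregulated blocks ran between 1 and 11 over the settings tried. It was 1 without Zhr[1] replicate 3, 1 without PoX2[Df1.688] replicate 2 and 6 without PoX2[Df1.688] replicate 1.

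Some RNA assigned to the Y chromosome and to ribosomal DNA set the strains apart, in flies labelled female on both sides. Of 54 Y entries with a read in any of the 8 samples 22 did not overlap between strains, 21 of them higher and 1 lower in Zhr[1] females. Over all tested genes 25.2% did not overlap, but that base is unlike this one. All but 4 of the Y entries were untested for low counts, where a few reads against 0 can give no overlap (CG45764, 5 reads against 0). Su(Ste):CR42430, a Y-linked repeat whose small RNAs silence Stellate in testes, had 32.5, 25.2, 22.2 and 29.3 CPM in Zhr[1] females, against 0 in all 4 PoX2[Df1.688] females, 1796 counts against 0 and at least 525-fold higher. Su(Ste):CR42439, on an unplaced scaffold, had 8.53, 5.92, 6.78 and 5.86 CPM, against 0 (at least 132-fold higher). All 4 tested Y genes were upregulated, and each was a Su(Ste) copy, so reads may be split among near-identical copies. Each had 0 reads in PoX2[Df1.688] females and passed the filter through Zhr[1] females alone, so it could only come out higher. The entry that was lower, CR41507, had 0 CPM in all 4 Zhr[1] females, against 0.404, 0.534, 0.647 and 0.446 CPM in PoX2[Df1.688] females (0 reads against 30). Whether Zhr[1] females carry Y or additional ribosomal DNA sequence was not tested. Protein-coding fertility genes stayed at traces. kl-2, a dynein heavy chain gene, had 0.891, 0.893, 0.529 and 0.141 CPM in Zhr[1] females, against 0, and kl-3 0.573, 0.391, 0.212 and 0.423, against 0. ORY, PRY and CCY were at 0 in all 8 samples, and the 11 Y-linked fertility genes listed summed to 0.847–1.46 CPM in Zhr[1] females, compared with 0–0.0534 CPM in PoX2[Df1.688] females. Of the testis markers listed, 10 of 12 were untested for low counts and the list summed to 24.4–33.98 CPM in Zhr[1] females, against 17.8–22.8 CPM in PoX2[Df1.688] females, mostly from twe, a phosphatase gene also used in oogenesis (27.5, 17.5, 23.1 and 23.3 CPM, against 16.4, 13.7, 16.5 and 13.7 CPM).

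A pair of ribosomal DNA entries moved in opposite directions. pre-rRNA:CR45847 had 51.0, 43.0, 42.1 and 43.3 CPM in Zhr[1] females, against 0.243, 0.0534, 0.216 and 0 CPM in PoX2[Df1.688] females (log2 fold change 8.45, SE 0.29, edgeR adjusted p = 5.35e-08). Conversely, pre-rRNA:CR45845 had 7.13, 5.53, 6.83 and 6.99 CPM, against 89.1, 57.4, 76.2 and 79.2 CPM (−3.51, SE 0.15, edgeR adjusted p = 2.49e-07). Ribosomal RNA had been depleted and its reads filtered out before alignment, so these values are remnants, and reads can be divided among near-identical copies.

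Across the genome 11020 genes were tested and 2341 (21.2%) were called, 1047 (9.5%) upregulated and 1294 (11.7%) downregulated in Zhr[1] females. The levels of 25.2% of tested genes did not overlap between strains. A change of at least 2-fold was seen in 196 upregulated and 304 downregulated genes, so most calls were modest shifts around a median log2 fold change of 0.01. The upregulated count fell to 637 without Zhr[1] replicate 1, and to 657, 607 and 642 without PoX2[Df1.688] replicates 1, 2 and 4. The downregulated count was 855 without PoX2[Df1.688] replicate 4.

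X-linked genes were called at about the rate of all genes. On the X 192 of 1818 tested genes were upregulated (10.6%) and 188 downregulated (10.3%), close to the background. Mean log2 CPM of X genes minus that of autosomal genes was 0.352, 0.330, 0.365 and 0.348 in Zhr[1] females, against 0.329, 0.324, 0.342 and 0.296 in PoX2[Df1.688] females, a difference of 0.026 (SE 0.012, or 1.81%, exact permutation p = 0.0571, adjusted p = 0.0857 over 6 chromosome and bin values). Ranges overlapped, and the difference did not pass the test.

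Chromosome 4, the small heterochromatin-rich chromosome bound by POF, tilted the other way. None of its 86 tested genes was upregulated and 16 were downregulated (18.6%, against 11.7% of all genes), with a median log2 fold change of −0.21. Among those are ATPsynbeta, a subunit of ATP synthase (−0.67, SE 0.11, edgeR adjusted p = 0.00188), ND-49, a complex I subunit (−0.48, SE 0.08, adjusted p = 0.00201), bt, the gene of the muscle protein projectin (−0.38, SE 0.09, adjusted p = 0.0178), and the kinase gene CaMKII (−0.28, SE 0.09, adjusted p = 0.0486). The call of CaMKII was lost in 10 of 15 alternatives, among them the fits without Zhr[1] replicate 1, 3 or 4 or PoX2[Df1.688] replicate 1, 2 or 4, and that of bt without Zhr[1] replicate 3 or PoX2[Df1.688] replicate 1 or 4 (largest edgeR adjusted p 0.151 and 0.0531). Genes of muscle and mitochondria are thus part of this count. Per sample, the mean of chromosome 4 minus autosomes was 1.18, 1.39, 1.40 and 1.32 in Zhr[1] females, against 1.57, 1.54, 1.39 and 1.57 in PoX2[Df1.688] females (difference −0.19, SE 0.07, or −12.4%, exact permutation p = 0.0857). PoX2[Df1.688] replicate 3 lay below 2 Zhr[1] samples, and the difference did not pass the test.

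**Figure D2:**
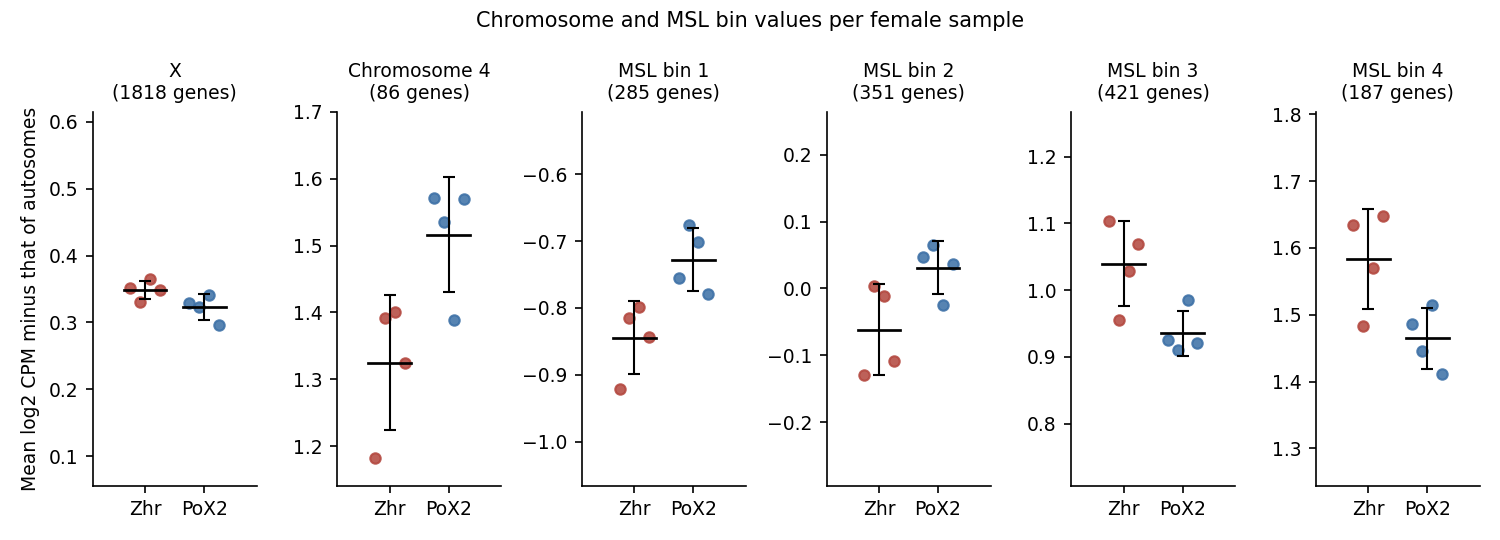
Mean log2 CPM of X genes, chromosome 4 genes and X genes in MSL bins minus that of autosomal genes, with Zhr[1] females left of PoX2[Df1.688] females. Points are samples, lines and bars are mean and SD, and each panel spans the same height. X values run over 0.330–0.365 in Zhr[1] and 0.296–0.342 in PoX2[Df1.688] females, and bin 1 is the value without overlap.

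X genes were also divided into 4 bins by binding of the MSL complex in male cells, from weakest (bin 1) to strongest (bin 4), a division made in the study from other data. Bins 1 and 2 were lower in Zhr[1] females by 0.117 and 0.093 on average, and bins 3 and 4 higher by 0.104 and 0.119. Bin 1 was the case without overlap, at −0.922, −0.815, −0.798 and −0.843 in Zhr[1] and −0.755, −0.675, −0.701 and −0.779 in PoX2[Df1.688] females (exact permutation p = 0.0286). Adjusted over 6 values all of them had an exact permutation p of 0.0857, so no bin passed the test. In bin 4 23 of 187 tested genes were upregulated (12.3%) and 6 downregulated (3.21%), and in bin 1 24 of 285 were upregulated (8.42%) and 45 downregulated (15.8%), beside 9.5% and 11.7% of all genes.

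Genes beside the deletions were examined next. Within 50 kb of the PoX2 block lie 25 genes, of which 20 were tested, 2 upregulated and 3 downregulated (25.0% called, against 21.2% of all genes), with a median log2 fold change of 0.00. CG1840, which flanks the deleted repeats, had 5.35, 3.57, 4.02 and 5.22 CPM in Zhr[1] females, against 3.72, 4.11, 4.10 and 3.57 CPM in PoX2[Df1.688] females (log2 fold change 0.22, SE 0.19, edgeR adjusted p = 0.434). Further along sicily had 0.28 (SE 0.14, edgeR adjusted p = 0.163) and wisp, which encodes the cytoplasmic poly(A) polymerase of late oogenesis, 0.28 (SE 0.14, adjusted p = 0.189). Groups overlapped for all 3 genes. Calls lay at other genes. CG10347 was upregulated (0.40, SE 0.11, edgeR adjusted p = 0.0246), as was Upf1 of nonsense-mediated decay (0.25, SE 0.06, adjusted p = 0.0205), and each call was lost in 4 of 15 alternatives. For CG10347 these were the fits without Zhr[1] replicate 1 or 3 or PoX2[Df1.688] replicate 1 or 4, and for Upf1 those without Zhr[1] replicate 1 or PoX2[Df1.688] replicate 2 or 4 and with all 16 female samples (largest adjusted p 0.0662 and 0.0615). CG10352 (−1.58), pot (−0.71), whose product anchors epidermal cells to cuticle, and Sclp (−1.05) were downregulated.

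Beside the Zhr deletion, the last 1 Mb of the assembled X holds 66 genes, of which 37 were tested, with 2 upregulated and 5 downregulated (median 0.08). That is 18.9% called, against 21.2% of all genes, so calls were no more common there. CG40485 had 1.34, 1.12, 3.49 and 1.98 CPM in Zhr[1] females, against 31.1, 38.3, 23.7 and 34.4 CPM in PoX2[Df1.688] females (log2 fold change −3.99, SE 0.31, edgeR adjusted p = 2.1e-05). Its neighbour CG40486 had 5.35, 5.75, 5.14 and 4.80 CPM, against 11.3, 12.9, 11.5 and 10.9 CPM (−1.15, SE 0.13). Cda4, a chitin deacetylase gene (−1.004, SE 0.10), Usp2 (−0.37, SE 0.08) and CG17162 (−0.997, SE 0.31) were downregulated as well. zyd was upregulated (0.45, SE 0.09), and so was pre-rRNA:CR45856 (1.89, SE 0.54), at 1.23 CPM or less in every sample. The calls of CG17162 and pre-rRNA:CR45856 were weak, lost in 8 of 15 and 9 of 14 alternatives, both of them without Zhr[1] replicate 1, 2 or 4 or PoX2[Df1.688] replicate 1, 2 or 3, and pre-rRNA:CR45856 also without Zhr[1] replicate 3 (largest edgeR adjusted p 0.142 and 0.0943).

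Single genes with the largest differences stood on all arms, and the 10 in each direction were taken among called genes without overlap and with at least 5 CPM in the higher group. Besides Y and ribosomal entries, CR44079, a pseudogene on 2L (7399465–7399929), had 66.4, 84.7, 66.0 and 64.6 CPM in Zhr[1] females, against 0.162, 0.214, 0 and 0 CPM in PoX2[Df1.688] females. Fad2, a fatty acid desaturase that makes female sex pheromones, had 123, 217, 237 and 225 CPM, against 12.7, 7.37, 15.0 and 6.25 CPM (log2 fold change 4.29, SE 0.30, edgeR adjusted p = 1.12e-05). The eye pigment gene v, encoding tryptophan oxygenase, had 6.62, 9.04, 5.98 and 7.41 CPM, against 0.485, 0.214, 0.144 and 0.149 CPM (4.87, SE 0.33). CG13135 (5.10), the scavenger receptor gene Sr-CIV (4.25), CG7213 (3.68) and CG7631 (3.67) completed the upregulated set.

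Several genes had no read at all in Zhr[1] females. Lsp1alpha (X: 12490291–12492982), a larval serum protein stored in the fat body, had 0 CPM in all 4, against 37.4, 27.4, 121 and 123 CPM in PoX2[Df1.688] females, at least 1642-fold lower. mthl8, of the methuselah receptor family, and CG3397 were likewise without a read in Zhr[1] females (at least 274- and 246-fold lower). lncRNA:CR40469, near the tip of the X (122493–122706), had 0.509, 1.28, 0.794 and 1.48 CPM, against 573, 778, 462 and 487 CPM (log2 fold change −9.15, SE 0.28, edgeR adjusted p = 3.24e-08). Mur18B, a mucin-related gene, had 13.5, 18.4, 17.7 and 12.7 CPM, against 515, 593, 626 and 583 CPM (−5.21, SE 0.14, edgeR adjusted p = 1.28e-08). CG42749 (−6.89), CG13042 (−6.43), the odorant-binding protein gene Obp57a (−5.77), CG42323 (−5.52) and the phosphatase gene Alp8 (−4.96) followed.

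Flight muscle genes were lower in Zhr[1] females without exception. All 22 listed sarcomere genes were downregulated (against 11.7% of all genes), with a median log2 fold change of −0.55 beside 0.01 over all genes. Mhc, the muscle myosin heavy chain, had 21007, 22028, 17584 and 17784 CPM in Zhr[1] females, against 35721, 32745, 30253 and 33472 CPM in PoX2[Df1.688] females (−0.75, SE 0.10, edgeR adjusted p = 0.000756). Mlc2, a myosin light chain, had 7324, 7822, 6357 and 5878 CPM, against 13202, 12510, 11338 and 12603 CPM (−0.86, SE 0.10). TpnC4, the troponin C of stretch activation, had −1.30 (SE 0.15) and fln, encoding flightin of the thick filament, 20.2, 17.6, 7.47 and 3.25 CPM, against 111, 57.7, 83.5 and 91.7 CPM (−2.82, SE 0.44). Summed over the list, levels were 57948–70937 CPM in Zhr[1] and 89330–104574 CPM in PoX2[Df1.688] females. In whole flies, fewer cells of a type and less RNA per cell cannot be told apart, here or for the groups that follow.

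Nuclear genes of the respiratory chain shared that direction. Of 72 tested subunit genes 61 were downregulated (84.7%, against 11.7% of all genes) and 1 upregulated (1.39%, against 9.5%), with a median of −0.52. Cyt-c-p, the main cytochrome c gene, had 696, 693, 582 and 548 CPM in Zhr[1] females, against 1107, 1343, 914 and 989 CPM in PoX2[Df1.688] females (−0.79, SE 0.12, edgeR adjusted p = 0.00186). ATPsynG, an ATP synthase subunit, had 105, 92.3, 72.0 and 85.0 CPM, against 265, 315, 239 and 258 CPM (−1.60, SE 0.12), the lowest called fold change in the list. The upregulated member, ATPsynCF6L, a weakly expressed relative of coupling factor 6, had 2.0999, 2.29, 1.22 and 1.62 CPM, against 0.243, 0.427, 0.144 and 0.0744 CPM (2.90, SE 0.45). Of 15 tested genes of the mitochondrial genome 9 were downregulated (60.0%, against 11.7% of all genes). Among them was mt:CoI of complex IV with 5290, 4753, 4126 and 3575 CPM, against 8809, 6673, 7462 and 8711 CPM (−0.84, SE 0.13). Summed levels of the mitochondrial genome overlapped, at 58422–66168 CPM in Zhr[1] and 50521–77449 CPM in PoX2[Df1.688] females. The ribosomal RNA mt:srRNA went the other way without a call (0.36, SE 0.23, edgeR adjusted p = 0.281). This mitochondrial count was 4 with all 16 female samples in the fit, 5 without Zhr[1] replicate 3, and 4 without PoX2[Df1.688] replicate 1 or 4.

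**Figure D3:**
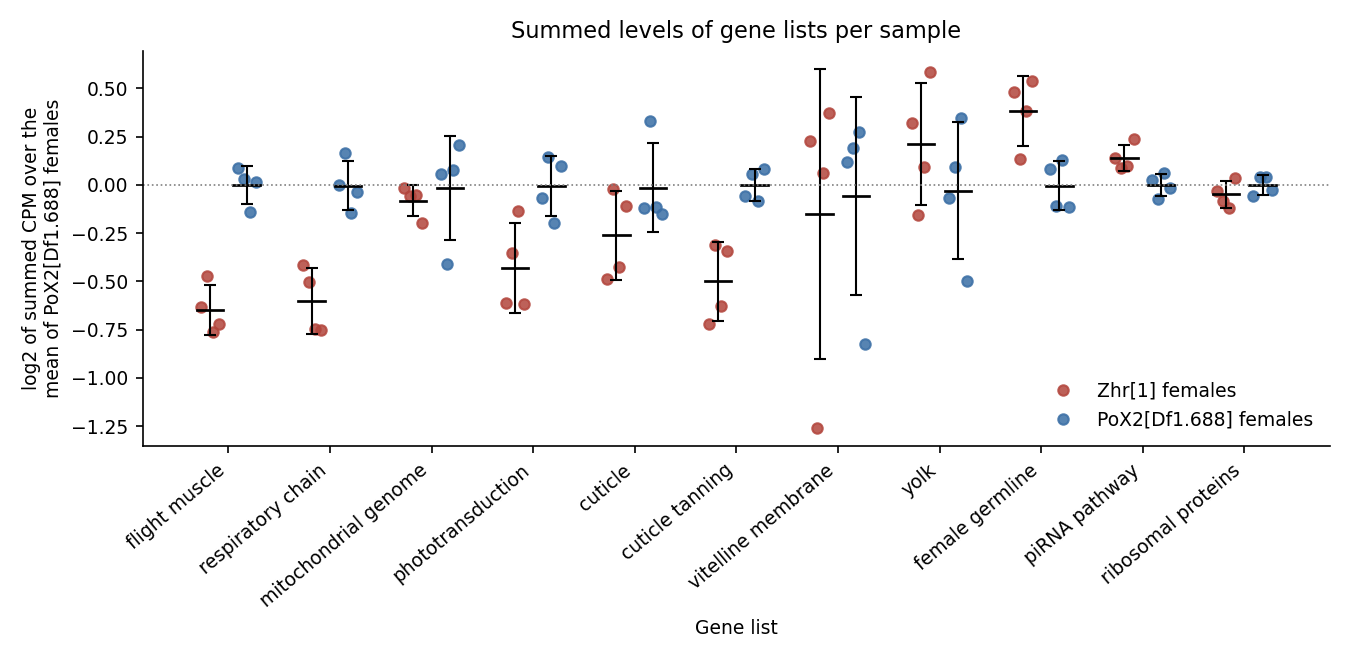
Summed CPM of 11 gene lists per sample, as log2 of the ratio to the mean of PoX2[Df1.688] females, with Zhr[1] females (red) left of PoX2[Df1.688] females (blue). Points are samples, lines and bars are mean and SD of 4 samples. Flight muscle, respiratory chain and cuticle tanning sums are lower and female germline sums higher in all 4 Zhr[1] samples than in any PoX2[Df1.688] sample.

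Calls among phototransduction and cuticle protein genes were all downward. In phototransduction 11 of 15 tested genes were downregulated (73.3%, against 11.7% of all genes) and none upregulated (median −0.51), with the ocellar rhodopsin Rh2 at 4.07, 4.80, 5.08 and 5.36 CPM in Zhr[1] females, against 12.05, 15.7, 10.9 and 12.6 CPM in PoX2[Df1.688] females (−1.41, SE 0.16, edgeR adjusted p = 0.000257). The count was 6 without Zhr[1] replicate 1, 5 without PoX2[Df1.688] replicate 2 and 4 without PoX2[Df1.688] replicate 4. Among 48 tested cuticle protein genes 17 were downregulated (35.4%), none was upregulated and 31 were not called (median −0.48), and the summed level overlapped between strains (3501–4846 CPM in Zhr[1] and 4419–6182 CPM in PoX2[Df1.688] females). Cpr30F had 0.382, 0.335, 0.635 and 0.565 CPM, against 13.2, 9.99, 8.70 and 10.9 CPM (−4.46, SE 0.25), Cpr64Aa had −2.94 (SE 0.15), and Ccp84Ae had 2 counts in all, against 70. Tanning enzymes followed in part. The dopamine route genes ple (−0.62), Ddc (−0.39) and e (−0.95) were downregulated, but Ddc lost the call in 6 of 15 alternatives, among them the fits without Zhr[1] replicate 1 or 4 or PoX2[Df1.688] replicate 1 or 4, and ple without Zhr[1] replicate 3 or PoX2[Df1.688] replicate 4 (largest edgeR adjusted p 0.0791 and 0.0571). By contrast y, needed for black melanin, was upregulated at 5.03, 6.64, 5.45 and 6.77 CPM, against 1.54, 0.641, 0.935 and 0.893 CPM (2.60, SE 0.27, edgeR adjusted p = 0.000161).

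Among genes of the female germline 11 of 19 tested were upregulated in Zhr[1] females (57.9%, against 9.5% of all genes), 1 was downregulated and 7 were not called (median 0.41), although the upregulated count was 0 in the fit of all 16 female samples. dhd, a thioredoxin of the oocyte, had 627, 427, 528 and 562 CPM in Zhr[1] females, against 314, 264, 355 and 269.09 CPM in PoX2[Df1.688] females (0.83, SE 0.13, edgeR adjusted p = 0.00147). osk, the organizer of pole plasm, had 867, 808, 881 and 1025 CPM, against 719, 643, 723 and 690 CPM (0.37, SE 0.08). The RNA localization gene exu (0.63, SE 0.18) and CycB (0.51, SE 0.12) were among the others. grk, the oocyte's signal to follicle cells, was the exception at 20.8, 22.6, 24.2 and 29.8 CPM, against 33.4, 35.4, 29.8 and 29.5 CPM (−0.40, SE 0.12, edgeR adjusted p = 0.0409), and lost the call in 8 of 15 alternatives, including those without Zhr[1] replicate 1, 2 or 3 or PoX2[Df1.688] replicate 1, 2 or 4 (largest 0.118). Summed levels were 4098–5443 CPM, against 3453–4090 CPM, without overlap. These calls were fragile. With all 16 female samples dhd had an edgeR adjusted p of 0.0871, 7 genes were upregulated with upper-quartile scaling, and 3 or 4 were so without Zhr[1] replicate 1, 3 or 4 or PoX2[Df1.688] replicate 1, 2 or 4.

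In the piRNA pathway, which silences transposons in the ovary, 8 of 29 tested genes were upregulated (27.6%, against 9.5% of all genes) and none downregulated (median 0.30). The cochaperone gene shu had 35.1, 31.8, 34.3 and 35.6 CPM in Zhr[1] females, against 21.2, 20.6, 29.2 and 22.2 CPM in PoX2[Df1.688] females (0.55, SE 0.12, edgeR adjusted p = 0.00872). tej (0.47), krimp (0.53) and the helicase gene armi (0.27) were called too, but piwi was not (0.10, SE 0.08, adjusted p = 0.386). The count was 2 with all 16 female samples, 5 with the sample number as a block, 13 without Zhr[1] replicate 2, and between 2 and 5 without Zhr[1] replicate 1, 3 or 4 or PoX2[Df1.688] replicate 1, 2 or 4. The summed germline level, at 4098–5443 CPM in Zhr[1] and 3453–4090 CPM in PoX2[Df1.688] females, was higher in the same samples, and its part in the piRNA pathway calls was not tested.

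Short lists of genes that act on heterochromatin, satellites and dosage compensation held few calls, all upward, beside 9.5% of all genes upregulated. The upregulated share was below that background in the heterochromatin list. It was above it in the satellite and centromere list and in the dosage compensation list. Whether these shares differ from the background was not tested. The gene of HP1a, a core heterochromatin protein, had 79.1, 69.7, 78.4 and 84.3 CPM in Zhr[1] females, against 55.5, 61.3, 59.0 and 56.2 CPM in PoX2[Df1.688] females (0.42, SE 0.08, edgeR adjusted p = 0.00334) and was the sole call among 14 heterochromatin genes. In the satellite and centromere list 2 of 10 were upregulated, the topoisomerase gene Top2 (0.33, SE 0.08) and Cenp-C of the inner kinetochore (0.33, SE 0.10). In the dosage compensation list 1 of 8 tested was called, msl-1 at 124, 123, 126 and 131 CPM, against 104, 107, 113 and 108 CPM (0.22, SE 0.06, edgeR adjusted p = 0.0228). msl-2, which females do not translate, was not called (−0.09, SE 0.11, edgeR adjusted p = 0.601). Top2, Cenp-C and msl-1 were not called with all 16 female samples, and Cenp-C and msl-1 also lost the call without Zhr[1] replicate 3 or PoX2[Df1.688] replicate 1, 2 or 4, Cenp-C further without Zhr[1] replicate 1 or 4 and msl-1 with the sample number as a block (largest edgeR adjusted p 0.181, 0.0927 and 0.251).

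Ovarian follicle cell products showed large spread between samples of one strain. Cp18 of the late chorion had 176, 0.335, 529 and 0.494 CPM in Zhr[1] females, against 0.970, 0.214, 0.432 and 0.818 CPM in PoX2[Df1.688] females, so that only Zhr[1] replicates 1 and 3 stood out and the groups overlapped. Cp19 had 177, 3.18, 353.12 and 0.353 CPM, against 2.43, 0, 0.575 and 0.149 CPM, and Cp16 followed that order. All 3 were called upregulated (edgeR adjusted p of 0.019, 0.017 and 0.0209), but the count was 1 without PoX2[Df1.688] replicate 1 and 0 without PoX2[Df1.688] replicate 2 or 4. Early chorion sums spanned 1.62–966 CPM in Zhr[1] and 6.78–568 CPM in PoX2[Df1.688] females with no call among 5 genes. Vitelline membrane genes (0 calls of 7), other eggshell genes (0 of 8) and yolk genes (0 of 4) had none either, with Yp2 at 4209, 2879, 3728 and 5684 CPM, against 3047, 3620, 3992 and 2110 CPM.

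Other lists held few calls or calls in both directions, and whether their shares differ from those of all genes was not tested. Among 14 Jonah proteases of the gut 4 were downregulated (28.6%, against 11.7% of all genes) and 1 was upregulated (7.14%, against 9.5%). Downregulated Jon99Ciii had 81.8, 47.9, 83.8 and 36.6 CPM in Zhr[1] females, against 138, 184, 293 and 183 CPM in PoX2[Df1.688] females (−1.67, SE 0.29, edgeR adjusted p = 0.00291). Detoxification genes were divided into 18 upregulated and 18 downregulated of 140 (25.7% called), and ribosomal protein genes into 7 and 8 of 82 (18.3%), beside 21.2% of all genes. The summed level of detoxification genes was nevertheless lower in all Zhr[1] samples, at 7317–9043 CPM, against 10190–11710 CPM in PoX2[Df1.688] females. Among ribosomal protein genes RpS19b, an ovary-enriched paralog, was upregulated at 1.16–1.65 CPM, against 0.149–0.575 CPM (2.26, SE 0.43). Of 10 tested heat shock genes 3 were upregulated and 1 downregulated, beside 9.5% and 11.7% of all genes. Upregulated were Hsp26 (0.94, SE 0.21), Hsp23 (1.29, SE 0.36) and 1 other. Hsp23 was not called without Zhr[1] replicate 1, 2 or 3, without PoX2[Df1.688] replicate 1 or 2 or with the sample number as a block (largest edgeR adjusted p 0.0727). Hsp70Bc was downregulated (−1.53, SE 0.30), although its copies are nearly identical and reads may be split among them. Larval fat body genes had Fbp2 upregulated (255, 286, 184 and 108 CPM, against 25.96, 22.4, 111 and 99.6 CPM) beside the missing Lsp1alpha, a call lost under the same 6 settings as that of Hsp23 (largest edgeR adjusted p 0.0844). In the clock, tim (0.48) and vri (0.26) were upregulated and 1 gene of 10 was downregulated, beside 9.5% and 11.7% of all genes. Both lost the call with the sample number as a block and without Zhr[1] replicate 2 or 3 or PoX2[Df1.688] replicate 1, 2 or 4, vri further without Zhr[1] replicate 1 or PoX2[Df1.688] replicate 3 and with all 16 female samples (largest edgeR adjusted p 0.0739 and 0.0898). Of 26 odorant-binding protein genes 3 were downregulated (11.5%, against 11.7% of all genes), including Obp57c next to Obp57a (−0.93, SE 0.14). The testis list had 1 call, twe, a Cdc25 phosphatase gene (0.60, SE 0.14), sro (0.72) was the sole call in ecdysone synthesis, and v was joined by rb (0.28) among 19 eye pigment genes, of which none was downregulated (median 0.10). The call of rb was lost without Zhr[1] replicate 1 or 3 or PoX2[Df1.688] replicate 2 or 4 and, like that of twe, with all 16 female samples (largest edgeR adjusted p 0.0923 and 0.139). No antimicrobial peptide gene of 8 and no Turandot gene of 4 tested was called.

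Repeats other than satellites also set the strains apart. Of 672 tested repeat names 211 (31.4%) were called, 64 upregulated (9.52%) and 147 downregulated (21.9%), and 30.7% of all did not overlap. The median log2 fold change was −0.19 with the gene table as scale. When the repeat table was scaled on its own total, the median was −0.02 and 46.4% instead of 30.3% of calls were upregulated, so the split between directions moved with the scale.

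Retrotransposons gave the largest changes in both directions. G6_DM, a jockey-like non-LTR element, had 953, 2146, 1385 and 821 CPM in Zhr[1] females, against 19.4, 19.3, 16.3 and 18.2 CPM in PoX2[Df1.688] females (6.18, SE 0.29, edgeR adjusted p = 6.35e-10), and Jockey-1_DSe differed by 4.83 (SE 0.28). MICROPIA_I-int, an LTR element, had 3995, 4335, 3452 and 3042 CPM, against 166, 193, 176 and 153 CPM (4.43, SE 0.14). Copia_I-int had 3367, 1309, 1291 and 955 CPM, against 86.4, 45.7, 121 and 116 CPM (4.23, SE 0.39), and its terminal repeat Copia_LTR 3.46 (SE 0.29). ACCORD2_LTR (3.04), GTWIN_I-int (2.69) and ACCORD_I-int (2.44) completed the upregulated set. None of these 8 overlapped between strains.

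The 8 called names with the lowest fold change were led by Gypsy6-I_Dmoj, an LTR element. Gypsy6-I_Dmoj had 1.46, 6.53, 2.59 and 79.7 CPM in Zhr[1] females, against 2561, 1713, 2510 and 372 CPM in PoX2[Df1.688] females (−6.32, SE 1.09, edgeR adjusted p = 0.000414), with replicate 4 of each strain nearest to the other strain. ZAM_I-int, a gypsy-type element known from follicle cells, had 15.7, 16.4, 17.6 and 28.3 CPM, against 302, 301, 218 and 306 CPM (−3.86, SE 0.20). MAX_I-int had 482, 573, 451 and 605 CPM, against 3485, 2704, 2807 and 2504 CPM (−2.45, SE 0.13), and its terminal repeat MAX_LTR −2.53 (SE 0.23). ROVER-I_DM (−2.59), Stalker2_LTR (−2.67), Gypsy1-I_Dmoj (−3.29) and the DNA transposon Transib-4_DBp (−2.71) also fell in this set. Names come from a repeat library of many species, so a name from another species marks the closest match, and each place of a pair was counted.

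**Figure D4:**
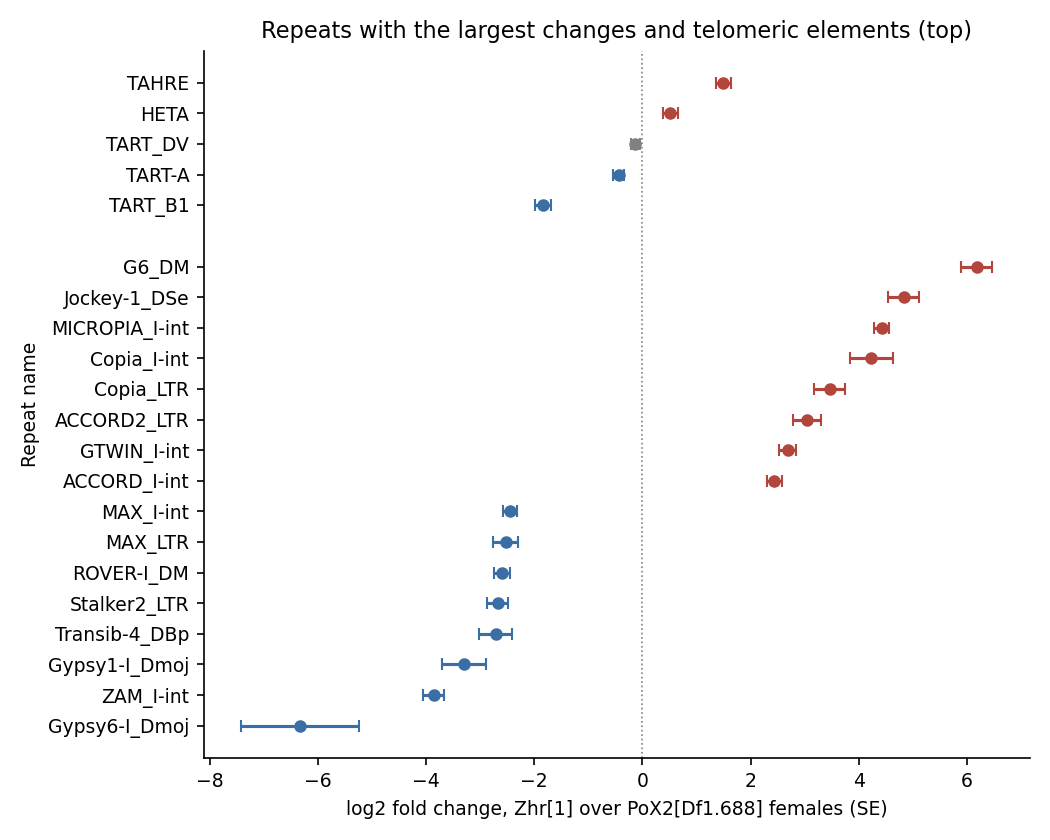
Log2 fold change of Zhr[1] over PoX2[Df1.688] females with SE (4 samples each) for telomeric elements (top group) and the 8 largest called changes in each direction (lower group). Red marks upregulated, blue downregulated and grey uncalled names. G6_DM is highest at 6.18 and Gypsy6-I_Dmoj lowest at −6.32, and telomeric elements lie on both sides of 0.

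Telomeric retrotransposons, which lengthen chromosome ends in flies, did not move together. TAHRE had 342, 509, 477 and 522 CPM in Zhr[1] females, against 156, 172, 160 and 169 CPM in PoX2[Df1.688] females (1.49, SE 0.14, edgeR adjusted p = 6.67e-07). HETA was upregulated by less (410, 670, 508 and 603 CPM, against 365, 419, 373 and 375 CPM, 0.52, SE 0.14), with overlap. TART-A was downregulated at 4004, 5066, 4185 and 4802 CPM, against 6006, 5690, 6013 and 6773 CPM (−0.44, SE 0.10), as was TART_B1 (−1.84, SE 0.15), and TART_DV was not called (−0.13, SE 0.09, or 0.05 on the repeat table's own scale, edgeR adjusted p = 0.269). Among satellite names, which were counted but not tested, SAR_DM had 124, 163, 163 and 160 CPM, against 763, 649, 652 and 855 CPM. SAR2_DM had 33.3, 46.4, 41.1 and 42.7 CPM, against 60.8, 54.5, 59.5 and 60.4 CPM. Responder repeats (RSP) had 6.55, 6.75, 4.34 and 7.06 CPM, against 10.7, 8.97, 9.49 and 5.43 CPM, with overlap. SAT-1_DEl and SAT-1_DSim were lower without overlap (means of 3.34 against 14.5 CPM and 0.781 against 3.18 CPM), while DMSAT6 and HETRP_DM overlapped between strains. Lower satellite RNA thus appeared under the name SAR_DM of this family as well, and not for every satellite. Repeat names and blocks were counted from the same alignments, so this is no independent test.

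To see which differences were particular to females, the same contrast was fitted in males, with 16 samples in all. Of 13280 genes 910 (6.85%) differed between the sexes, 530 with a higher and 380 with a lower fold change in females, while 1853 (14.0%) were called in the contrast of males, whether or not they were called in females. Blocks differed in 6 of 312 cases (1.92%), but 165 of these blocks had no read in any Zhr[1] sample of either sex, so that their difference could not be estimated, and all 6 were among the other 147. In males 271 of the 312 blocks (86.9%) were called, 231 downregulated. Repeats differed in 31 of 715 (4.34%). Downregulated blocks were thus the majority of tested blocks in each sex, but the 165 without a Zhr[1] read could only come out lower.

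Y and ribosomal entries differed between the sexes to unequal extents, and males of both strains carry a Y. Su(Ste):CR42430 had a log2 fold change of 1.76 in males, and pre-rRNA:CR45847 8.52 in females and 0.34 in males (difference 8.18, edgeR adjusted p = 1.36e-11). pre-rRNA:CR45845, in contrast, was lower in both sexes (−3.89 in males). CR44079, CG13135, lncRNA:CR40469 and Mur18B had no called difference between the sexes. Lsp1alpha and CG3397 had none either. Both were without a read in Zhr[1] females and reached at most 0.0604 and 0.0735 CPM in Zhr[1] males, so a difference could hardly show. mthl8, without a read in Zhr[1] males or females, and Fad2, at 0–1.83 CPM in Zhr[1] and 0 CPM in PoX2[Df1.688] males, could not show one. For Sr-CIV, CG7213, CG42749 and CG13042 the change was larger in females (adjusted p of 0.00138, 0.00159, 0.0165 and 0.01), in the same direction. y was upregulated far more in males, with 2.68 in females and 7.12 in males.

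Muscle and mitochondrial genes held many sex differences, beside 6.85% of all genes that differed between the sexes. In the joint fit the median of 22 flight muscle genes was −0.47 in females and −0.14 in males, and 9 had a lower fold change in females, including TpnC4 and fln. Respiratory chain genes had −0.43 in females and 0.09 in males, with 34 of 84 lower in females, Cyt-c-p among them (−0.71 in females, 0.25 in males, edgeR adjusted p = 0.00635). Genes of the mitochondrial genome had −0.46 in females and 0.33 in males, with 8 of 15 lower in females. Heat shock genes split by sex through the males, whose median was −1.22 beside 0.17 in females, and 10 of 14 differed. Hsp68, not called in females, had 0.11 in females and −1.83 in males (edgeR adjusted p = 4.62e-07).

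**Figure D5:**
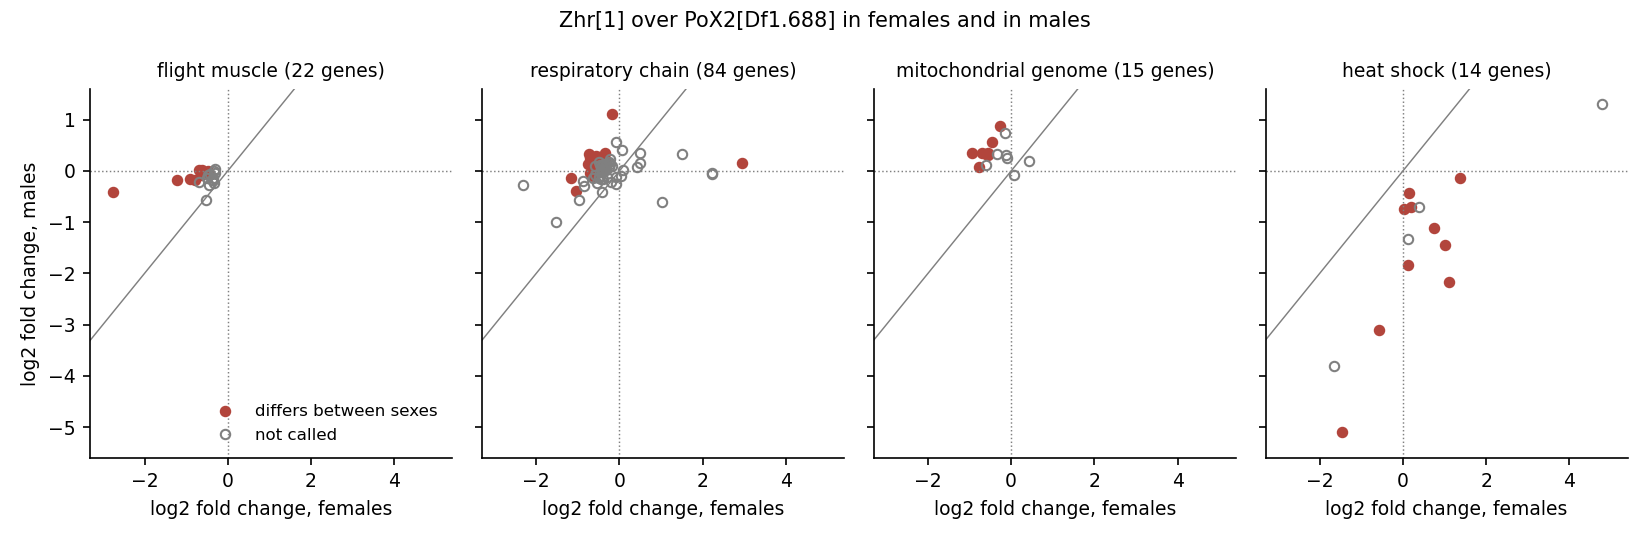
Log2 fold change of Zhr[1] over PoX2[Df1.688] in females (x axis) and males (y axis) for each gene of 4 lists, from the joint fit of 16 samples. Red points differ between the sexes at an adjusted p below 0.05, open points do not, and the diagonal marks equal change. Flight muscle genes and most respiratory chain genes lie left of 0 in females, whereas most heat shock genes lie below 0 in males.

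Some transposons differed by sex too. MICROPIA_I-int had 4.5002 in females and 2.95 in males, Copia_I-int 4.30 and 1.66, and Copia_LTR 3.54 and 0.58 (edgeR adjusted p of 2.15e-06, 0.000426 and 2.15e-06). ZAM_I-int was lower by more in females (−3.77 in females, −2.83 in males). The change of HETA was larger in females (0.59 in females, −0.01 in males, edgeR adjusted p = 0.0457). G6_DM, Jockey-1_DSe, TAHRE and TART_B1 had no called difference between the sexes.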

How the data were processed

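RNA from whole flies was depleted of ribosomal RNA and sequenced in pairs. Reads were trimmed by the authors (Trimmomatic 0.36), filtered against ribosomal RNA, aligned to the release 6 genome with STAR 2.5.4b and turned with featureCounts 1.6.3 into the 3 deposited tables of raw counts (unique read pairs per gene without regard to strand, single reads per satellite block, and read pairs per repeat name). In the block and repeat tables each place of a multiply mapping read was counted, so blocks and names share reads. Columns of 4 Zhr[1] and 4 PoX2[Df1.688] female samples were used, sequencing 13059000–19640742 gene pairs and 1703–13668 block reads per sample, so that counting error limits single blocks most.

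The genes, blocks and repeats of both strains were compared in R 4.3.3 with edgeR 4.0.16 (filterByExpr, TMM factors, quasi-likelihood F test, two-sided, Benjamini-Hochberg adjustment, threshold 0.05) on 8 samples. Block and repeat counts were scaled with library sizes and TMM factors of the gene table. SE is the absolute log2 fold change over the square root of F. Sums of blocks (0.5 counts added), chromosome and bin values per sample were tested by exact permutation, two-sided, in Python 3.11.15 with numpy 2.4.6, scipy 1.17.1 and pandas 2.3.3, and figures were drawn with matplotlib 3.10.9. The sexes were compared with an interaction term over 16 samples. Scripts were tested on simulated data.

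The members, gene lists and named features were chosen with earlier results of these data known. Named were list members, the 10 called genes with the largest change each way (mean of at least 5 CPM in the higher group, no overlap), genes within 50 kb of the PoX2 deletion or in the last 1 Mb of the X, the 6 largest called blocks and 8 largest called repeats each way, intronic blocks, telomeric elements and satellite names. The highest block in Zhr[1] females was added after its values were seen. For features at 0 in one strain a bound against 3 counts over the group is given instead of a fitted change. Names of satellites, ribosomal and transfer RNAs and low-complexity sequence, 22 in all, were left out of the repeat test. Alternatives were all 16 female samples in one fit, DESeq2 1.42.0, RLE and upper-quartile scaling, other filters, the sample number as a block, each sample left out, a 2-fold minimum and, for blocks and repeats, their own library size. The study names 4 biological replicates per genotype and nothing in the labels ties them to separate cultures, so p-values measure the spread between these samples.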

Additional observations from a re-analysis of the deposited data

Results flagged for a closer look

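A group of 4 samples was tested for a sample far from the others by the gap to its neighbour over the whole range, against Dixon's 95% limit. Of 302 group values 16 passed, and chance gives about 1 in 20. In Zhr[1] females the ratio was 0.911 for CR44079 (64.6–84.7 CPM), 0.870 for pre-rRNA:CR45847 (42.1–51.0 CPM), 0.830 for CycB (739–1035 CPM) and 1.0 for Ccp84Ae, where 1 sample had reads. Among repeats of Zhr[1] females it was 0.853 for Copia_I-int and 0.837 for Copia_LTR, both from replicate 1, 0.935 for Gypsy6-I_Dmoj and 0.848 for ZAM_I-int, both from replicate 4, and 0.919 for SAR_DM, low in replicate 1. The sum of all satellite blocks had 0.974, with Zhr[1] replicate 1 lowest at 108 CPM, and the Pde9 block X_12797300_12797611 had 1.0. In PoX2[Df1.688] females the ratio was 0.833 for Sclp (108–192 CPM), 0.863 for piwi (114–134 CPM), 0.848 for RpS19b (0.149–0.575 CPM), 0.941 for ZAM_I-int (218–306 CPM) and 0.871 for block 211000022278620_1_1637 (9.42–13.3 CPM).

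A difference between the sexes was found by the interaction term (edgeR adjusted p below 0.05) for 36 of 132 features compared. Over all features, 6.85% of genes, 1.92% of blocks and 4.34% of repeats differed. The named features were chosen with earlier results known, so their count is no neutral rate. Values are female minus male log2 fold changes of Zhr[1] over PoX2[Df1.688]. Among Y and ribosomal entries these were 9.94 for Su(Ste):CR42430, 8.30 for Su(Ste):CR42439, 5.55 for kl-2, 5.30 for kl-3 and 8.18 for pre-rRNA:CR45847, and the first 4 of these depend on the count added to groups at 0. Genes with large changes gave 3.17 (Sr-CIV), 2.32 (CG7213), −2.14 (CG42749) and −2.93 (CG13042). Near the PoX2 deletion CG10347 gave 0.50, and the block host CG12065 gave 0.44.

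Muscle genes gave −2.35 (fln), −1.04 (TpnC4) and −0.60 (Mlc2). Energy metabolism gave −0.55 (ATPsynbeta), −0.97 (Cyt-c-p), −0.43 (ND-49), −0.85 (mt:CoI) and 2.81 (ATPsynCF6L). Pigmentation genes gave −0.48 (e) and −4.44 (y), and RpS19b gave 2.22. Heat shock genes gave 2.46 (Hsp26), 3.62 (Hsp70Bc), 0.58 (Hsp83), 1.94 (Hsp68) and 1.49 (Hsp23), and clock genes 1.04 (tim) and 0.65 (vri). Repeats gave 1.55 (MICROPIA_I-int), 2.64 (Copia_I-int), 2.96 (Copia_LTR), 1.57 (ACCORD2_LTR), −0.94 (ZAM_I-int), −3.02 (Gypsy1-I_Dmoj) and 0.60 (HETA).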

How the results depend on the processing

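Of 127 named features 114 were called, 82 of them under every alternative run, and 32 lost the call under at least 1, of which 7 only by leaving out a sample. None of 13 uncalled features gained a call. Signs changed for TART_DV (0.052 on the repeat table's own library size), for Hsp68 (−0.027 to 0.13 with a sample left out) and for CG12065 (−0.013 to 0.14), none of them called. With a 2-fold minimum 196 genes were upregulated and 304 downregulated, 1 block upregulated, and 32 repeats upregulated and 51 downregulated. Upregulated blocks were 6 with all 16 female samples, 5 with DESeq2, 11 without a filter, 1 with a mean of at least 1 CPM and 7 with the block table's own library size. Downregulated blocks were 377, 418, 109 and 115 with DESeq2, no filter, that minimum and that library size, each of which tests another number of blocks (638, 638, 124 and 172, against 201). Upregulated repeats were 97 with their own library size. All 16 female samples gave 4 mitochondrial genome, 0 germline and 2 piRNA genes, and upper-quartile scaling gave 7 germline genes. Without TMM factors the 3L sum was −0.73. The cause of these shifts was not tested.

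The sample numbers were entered as a replicate block, although same-numbered samples deviated from their strain means with correlations of 0.01, −0.09, −0.01 and −0.03 (largest with another number 0.30), so they share only a number. The replicate block gave 705 upregulated and 1026 downregulated genes, 1 and 170 blocks, 53 and 124 repeats, and 5 piRNA genes, and 101 of 114 named calls held.

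With 1 sample left out, upregulated genes numbered 607–1142 and downregulated genes 855–1342, blocks 1–6 and 183–211, repeats 48–58 and 114–151. Calls numbered 19–22 for flight muscle, 52–63 for the respiratory chain, 4–10 for the mitochondrial genome, 4–11 for phototransduction, 15–21 for cuticle, 3–16 for germline, 2–13 for piRNA and 0–3 for late chorion genes. Block sums ran over −0.72 to −0.50 (X), −1.04 to −0.75 (3L), −1.18 to −0.96 (2L) and −3.55 to −3.41 (unplaced). Depth limits the single blocks, since Zhr[1] females had 1703–2692 block reads per sample.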
